A study of Caenorhabditis elegans with 4 samples.

Results

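The X chromosome of Caenorhabditis elegans held 39 of the 141 LIN-39 binding sites that the authors listed for the series as a whole, 6235 of the 30000 peaks listed for ChIP replicate 1, and 6120 of the 30000 listed for ChIP replicate 2. A peak was counted as an X peak when its chromosome was given as X in the deposited lists, and no measured value entered that assignment. X itself was chosen with its share of the highest peaks already known. The list for the whole series is called the series-level list, and its peaks are called sites. The X sites are set beside the 71 sites, 19422 replicate 1 peaks and 19665 replicate 2 peaks of chromosomes II to V.

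The data came from chromatin immunoprecipitation with sequencing (ChIP-seq), which recovers and sequences the DNA that a protein was crosslinked to. Chromatin came from whole hermaphrodites harvested at L4, the larval stage just before adulthood, after growth on HB101 bacteria at 20 °C. All 4 libraries share the strain OP18, which is mutant for unc-119 (allele ed3, chromosome III) and carries the transgene wgIs18. That transgene, put in by bombardment, holds lin-39::TY1::EGFP::3xFLAG, a LIN-39 protein fused to a green fluorescent protein tag, together with unc-119(+). The labels name no change to the strain's own lin-39 gene. There were 2 ChIP libraries, recovered with an antibody against the tag, and 2 input libraries of chromatin that did not go through the antibody. The labels name no library of a strain without the transgene, and the inputs have no peak list among the files used here. The labels do not say whether the replicates were grown as separate cultures.

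LIN-39 is a Hox protein, a transcription factor that assigns identity to cells by their place along the body. In the middle of the C. elegans body it acts in vulval precursor cells, in migrating neuroblasts and in neurons of the ventral cord. The X chromosome differs from the autosomes in ways that matter for reading a map of binding. It is subject to dosage compensation, which lowers transcription from both X chromosomes of hermaphrodites, and it carries few genes expressed in the germ line. The autosomes have conserved, gene-rich centres flanked by repeat-rich arms, and this division is weaker on X. Whole animals were used, so chromatin from cells without LIN-39 was part of every library.

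Peaks lie on build WS220 and are written as chromosome, start and end. Each peak has a number in its name, and number 1 is read as the strongest, since the rule for these members orders them so. The sources used here do not state that the number is the caller's rank. Each peak also carries a score on a log10 scale, which from its values is minus log10 of an estimated ratio of background calls to peaks. An estimate of 1 (score 0) means as many background calls as peaks at that depth of the list. Number and score do not run together down the replicate lists. The median score of X peaks in replicate 1 was 0.36 at numbers 1 to 100, -0.05 at 501 to 1000 and 0.0021 at 20001 to 30000, and in replicate 2 it was 1.84, -0.02 and -0.0029. The terms highest 100, 1000 and 5000 below go by number, and so rest on reading it as an order of strength. The lists hold no read counts, so the depth of every library is unknown, and intervals below are 95% exact Clopper-Pearson intervals that cover counting error only. No genome or gene annotation of build WS220 was used, so no gene or sequence is assigned to a peak.

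The X sites included a compact group that stood at the top of both replicates. Of the 39, 12 shared the top score in that list (1.61), and each of the 12 lay within the first 33 peaks of each replicate. The series-level list was made from a comparison of the replicates, so this closeness is partly built in. The best ordered was X:11093894-11094397, number 1 of the series-level list. It had number 2 in replicate 1 and number 1 in replicate 2, with peak centres 42 bp apart. X:13700528-13701031 was series-level number 2, with numbers 1 and 8 in replicates 1 and 2 and centres 2 bp apart. X:9465563-9466066 was series-level number 3 and carried number 5 in both replicates, the only X site with equal numbers.

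Next in the series-level order was X:2996845-2997348 (number 4), which overlapped a pair of peaks in each replicate, the lower-numbered of them being 14 and 2. X:16681790-16682293 (number 5) had numbers 4 and 6 in the replicates, and X:14525605-14526108 (number 7) had numbers 15 and 4. At X:16056220-16056723 (number 9) the numbers were close, 6 and 12, but the replicate centres were 134 bp apart, the widest separation among the 12. The other 5 sites of this group had series-level numbers 13 to 20. X:12362875-12363378 had number 3 in replicate 1 and 33 in replicate 2. X:8036053-8036556 had 7 and 19, X:806337-806840 had 12 and 25, X:12690241-12690744 had 27 and 16, and X:6296220-6296723 had 32 and 18. These 12 sites thus ran over the whole chromosome rather than one neighbourhood, with 2, 4 and 6 of them in the left, middle and right of 3 equal parts.

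All 12 carried the highest score of replicate 2 (1.84), which 17 X peaks share among 35 in that list. In replicate 1 the top score (1.28) was reached by 10 peaks. X held 7 of these and II to V held 1, and the 7 on X belonged to the 12. The remaining 5 of the 12 had replicate 1 scores between 0.569 and 0.885. In each list the peaks that share the top score are those with the lowest numbers, so these counts restate the order by number.

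A further 17 X sites had scores above 0 but below the highest. Their estimates ran from 0.143 at X:4208947-4209450 (series-level number 25) to 0.967 at X:2242721-2243224 (number 91). Within this group the replicates placed some sites close together. X:13196853-13197356 had numbers 56 and 49, X:13145082-13145585 had 90 and 73, X:14561583-14562086 had 193 and 179, X:3455462-3455965 had 95 and 67, and X:1064240-1064743 had 58 and 37. The site X:4802273-4802776 had numbers 138 and 89. In others replicate 2 stood nearer the top. X:8995418-8995921 had numbers 269 and 47, X:4208947-4209450 had 229 and 13, and X:15840921-15841424 had 663 and 77. In the opposite direction, X:2242721-2243224 had 82 and 451, X:4740624-4741127 had 78 and 711, and X:16612169-16612672 had 512 and 819.

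The last 10 X sites had scores between -0.185 and -0.0314, where background calls outnumbered peaks. They made up 25.6% of the X sites, against 30 of 71 (42.3%) on II to V, where the share ran from 7.69% on II to 66.7% on IV. X lay inside that range. Of the 10, X:10430415-10430918 and X:10430665-10431168 overlap each other, and their lowest-numbered replicate peaks are the same (numbers 566 and 103). Replicate 2 also lists number 726 at X:10430667-10431156, with its centre 22 bp from that of number 566. Whether the pair is 1 site was not tested. X:3127633-3128136 had numbers 170 and 725, and X:10771045-10771548 had 907 and 135. The remaining 6 stood beyond number 1000 in 1 of the replicates.

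**Figure D1:**
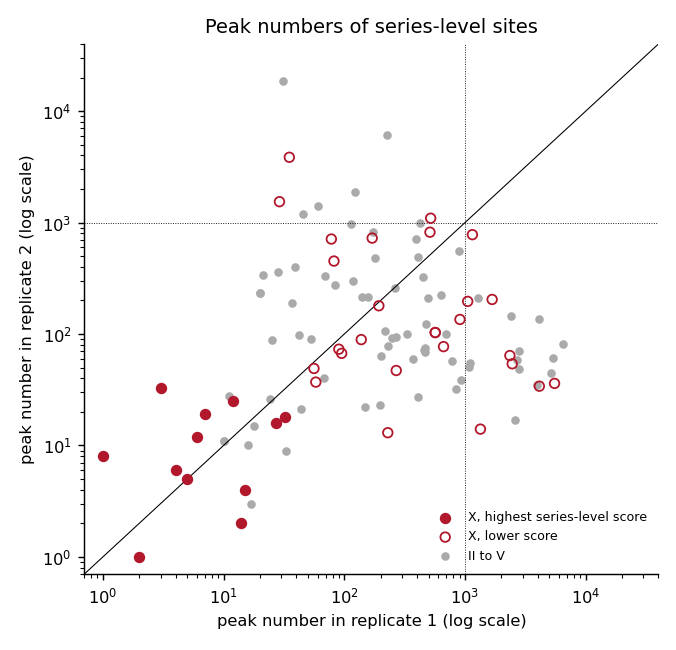
Peak number in replicate 1 (x axis) against peak number in replicate 2 (y axis), both on log scales, for the 39 X sites (red, filled where the series-level score is the highest) and the 71 sites of II to V (grey). The diagonal marks equal numbers, dotted lines mark number 1000, and the 12 filled points lie at 33 or below on both axes.

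Most X sites ranked high in both replicates, at about the rate of all sites. Of the 39, 28 (71.8%, interval 55.1 to 85.0) lay within the highest 1000 peaks of both, against 53 of 71 (74.6%, 62.9 to 84.2) on II to V and 72.3% of all 141 sites. Nearer the top the shares were further apart. Both replicates had the site within their highest 100 for 16 of 39 X sites (41.0%) and for 13 of 71 on II to V (18.3%), and the highest share on any of II, III, IV and V was 25%. This was not tested, since X is known from these lists to hold many of the strongest sites. The median number of the X sites was 95 in replicate 1 and 54 in replicate 2, against 226 and 93 for II to V. Replicate 2 placed the site nearer the top for 25 of the 39 X sites and for 42 of the 71 sites of II to V.

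The disagreements on X were mostly sites that stood high in replicate 2 alone, as they were on II to V. Beyond number 1000 in replicate 1 were 8 of 39 X sites and 13 of 71 sites of II to V. Of the 8 on X, 6 lay in the left of the 3 parts of X and none in the middle. The most uneven was X:1344768-1345271, at 5511 in replicate 1 and 36 in replicate 2, a 153-fold ratio of numbers. Next were X:11937212-11937715, with 4122 and 34 (121-fold), and X:1389333-1389836, with 1340 and 14 (95.7-fold). X:1909370-1909873 had numbers 2458 and 54, and X:16998504-16999007 had 2351 and 64. The others were X:3439843-3440346 (1676 and 204), X:3838893-3839396 (1051 and 196) and X:4132755-4133258 (1150 and 778). In the other direction 3 of 39 X sites and 5 of 71 sites of II to V lay beyond number 1000 in replicate 2. The 3 on X were X:5819816-5820319 (35 in replicate 1 and 3850 in replicate 2, a 110-fold ratio), X:13768433-13768936 (29 and 1538, 53.0-fold) and X:10146413-10146916 (519 and 1093). A ratio over 10 in either direction was seen at 9 of 39 X sites and 26 of 71 sites of II to V. Peak numbers are orders within a list, so these ratios do not measure amounts of binding.

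Peak centres were placed about equally well on X and elsewhere. At the X sites the centres of the lowest-numbered overlapping peaks of the replicates lay a median of 47 bp apart (interval of the median 26 to 94 bp, maximum 216 bp), against 44 bp (27 to 75 bp, maximum 337 bp) on II to V. They were within 100 bp at 27 of 39 X sites (69.2%) and 51 of 71 sites of II to V (71.8%). The median was 25.5 bp for the 12 X sites with the highest score, 55 bp for the 17 with scores above 0 and 77 bp for the last 10. The series-level centre was within 10 bp of the replicate 2 centre at 19 X sites and of the replicate 1 centre at 13. On II to V these counts were 27 and 32 of 71.

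Some strong X peaks of 1 replicate had no counterpart in the series-level list. In replicate 2, number 30 at X:13514267-13514756 had the highest score of that list, yet overlapped no replicate 1 peak, and the nearest X site was 186 kb away. X:6253647-6254136 (number 53) met only number 15493 of replicate 1. Number 79 at X:16929408-16929897 overlapped no replicate 1 peak, while X:9938490-9938979 (number 84) and X:12377716-12378205 (number 85) met numbers 23146 and 12637. In replicate 1 the lowest-numbered of these was X:7284586-7285081 (number 54), which met number 27003 of replicate 2. It lay 751 kb from the nearest site. X:12099792-12100287 (number 62) met number 7978. X:9278881-9279376 (number 75) and X:14818748-14819243 (number 91) overlapped nothing in replicate 2. X:16685844-16686339 (number 86) lay 4.05 kb from the site of series-level number 5. Of the highest 100 peaks, 21 of 28 on X in replicate 1 (75%) and 26 of 32 in replicate 2 (81.3%) overlapped a site. On II to V the counts were 24 of 48 (50.0%) and 39 of 52 (75%). V was lowest in replicate 1 at 25%, and III, at 83.3%, stood above X there.

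Sites were spread along nearly the whole of X. With X cut into 18 bins of 1 Mb from its left end, the last one partial, 16 bins held at least 1 site and no bin held more than 4. On II to V, 39 of 69 bins (56.5%) held a site, against 88.9% on X, and the shares ran from 33.3% on V to 78.6% on III. X also has more sites, at 2.20 per Mb against 1.05 per Mb on II to V. Of II to V, III came closest in both measures, at 2.03 per Mb. Chromosome I was left out of both measures. The empty X bins were those from 7 to 8 Mb and from 17 to 18 Mb. The maximum of 4 was reached in 6 bins, those that begin at 1, 3, 4, 10, 13 and 16 Mb. The bin from 16 to 17 Mb held 2 of the 12 highest-scoring sites, as did the bin from 12 to 13 Mb. The bins from 1, 3, 4 and 10 Mb held none of the 12, so a bin with many sites was not always one with the strongest sites.

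**Figure D2:**
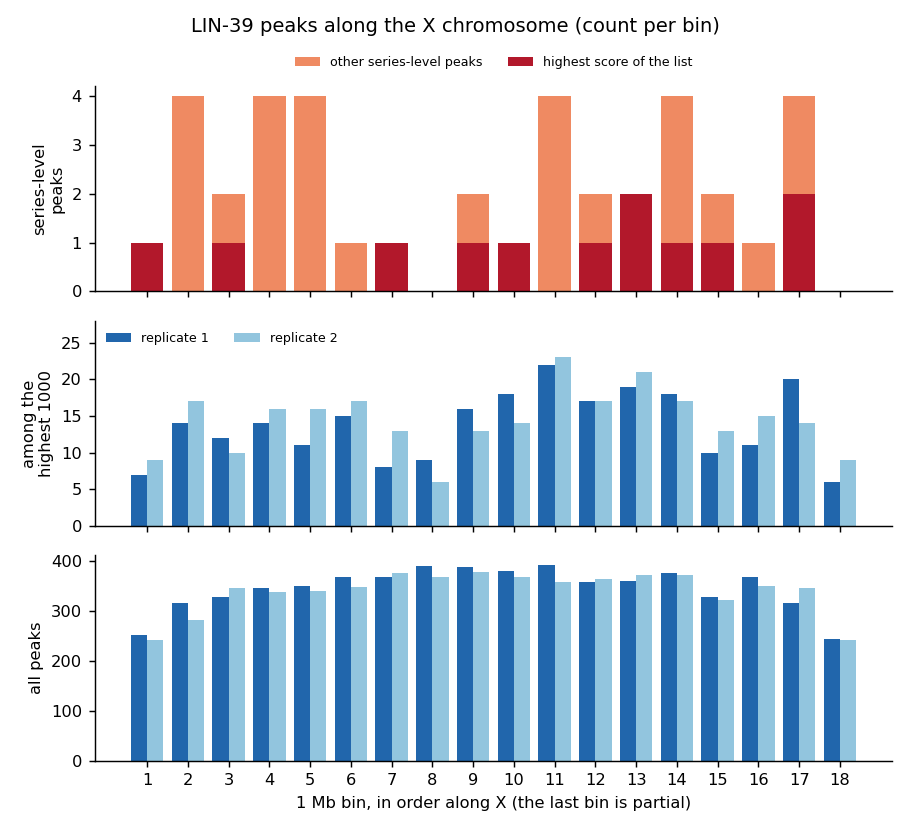
Number of X peaks in each 1 Mb bin, in order along the chromosome, for series-level sites (top, dark where the score is the highest of the list), for peaks among the highest 1000 of each replicate (middle) and for all peaks of each replicate (bottom). Bins 8 and 18 hold no site, although bin 8 holds 390 replicate 1 peaks and 369 replicate 2 peaks.

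Bins of X with more peaks in all did not hold more sites. Over the 17 whole bins, all peaks numbered between 252 and 392 in replicate 1 and between 242 and 378 in replicate 2, with the fewest at the left end. Bin counts of all peaks rose and fell together between the replicates (Pearson r 0.88, Spearman rho 0.78), and so did those of the highest 1000 (0.71 and 0.68). Site counts per bin had a Pearson r of -0.10 and a Spearman rho of -0.27 with the replicate 1 counts of all peaks, and -0.09 and -0.27 with those of replicate 2. These are descriptions over 17 bins that share a chromosome and its mappable sequence, and they were not tested. The bin from 7 to 8 Mb was near the top for all peaks, with 390 in replicate 1 and 369 in replicate 2, yet held only 9 and 6 of the highest 1000 and no site. The bin from 10 to 11 Mb held the most of the highest 1000, with 22 and 23, but none of the highest 100 of either replicate.

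Neighbouring X sites lay a median of 330 kb apart (interval of the median 281 to 476 kb, 38 gaps), against 485 kb (296 to 773 kb, 67 gaps) on II to V. These intervals overlap. Among the upper 70 sites of the series-level list, 22 of them on X, the medians were 532 kb on X and 987 kb on II to V. Over all sites the median was 199.7 kb on III, 504 kb on II, 769 kb on IV and 805 kb on V, so X was neither the closest nor the widest in spacing. X had few very long gaps. Over 1 Mb were 3 of its 38 gaps (7.89%), against 19 of 67 (28.4%) on II to V, where III had the lowest share, 11.1%. X also has less span per site, at 454 kb against 950 kb on II to V and 492 kb on III. The part of this density in the gap lengths was not tested. The longest X gap, 1740 kb, ran between X:6296220-6296723 and X:8036053-8036556, and sites of the highest score stood on both of its sides. The next were 1279 kb, from X:14561583-14562086 to X:15840921-15841424, and 1018 kb, from X:4802273-4802776 to X:5819816-5820319. Outermost sites lay 806 kb from the left end and 718 kb from the highest X position in any list.

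Close neighbours on X included sites of like and of unlike number. The shortest gap was the overlapping pair at X:10430415, with centres 0.25 kb apart and series-level numbers 129 and 133. X:3439843-3440346 and X:3455462-3455965 were 15.6 kb apart and had series-level numbers 127 and 37. X:14525605-14526108 and X:14561583-14562086 were 36.0 kb apart, with numbers 7 and 80. Nearer in number were X:13145082-13145585 and X:13196853-13197356, at 45 and 33 and 51.8 kb apart. X:4740624-4741127 and X:4802273-4802776, 61.6 kb apart, had numbers 57 and 42. The remaining neighbours under 100 kb apart were less alike, with series-level numbers 65 and 34, 2 and 89, 79 and 5, and 138 and 25. Under 100 kb were 9 of 38 X gaps (23.7%), against 11 of 67 on II to V (16.4%). Within 10 kb of its centre an X site had a median of 7 replicate 1 peaks and 8 replicate 2 peaks of any number, the same medians as the sites of II to V. More than 1 of the highest 1000 lay in that window at 12 X sites in replicate 1 and 11 in replicate 2, against 26 and 24 of the 71 sites of II to V.

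**Figure D3:**
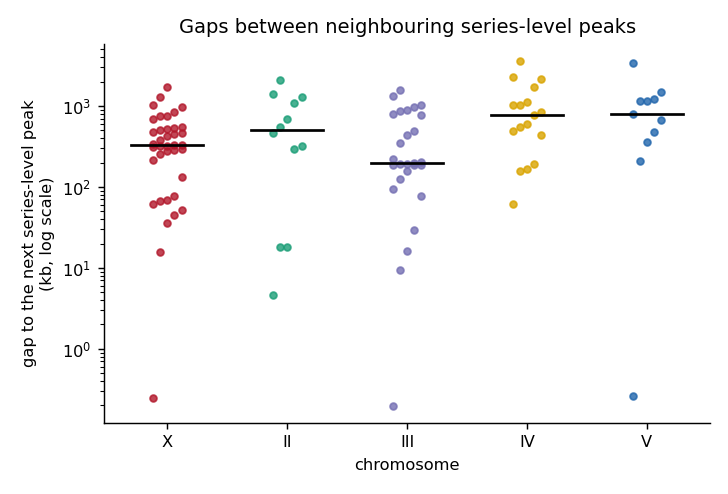
Distance from each series-level peak to the next on the same chromosome (kb, log scale) on X, II, III, IV and V, 1 point per gap and a black line at the median. Gaps on X have a median of 330 kb and end at 1740 kb, while the longest gap of II to V, on IV, is 3574 kb.

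On X the sites did not gather in the middle of the chromosome. The middle of 3 equal parts, from 5.91 to 11.8 Mb, held 9 of the 39 sites (23.1%, interval 11.1 to 39.3), with 16 to its left and 14 to its right. On II to V the middle part held 37 of 71 sites (52.1%, 39.9 to 64.1), between 46.4% on III and 69.2% on II. The X share was below that of each of the 4, and its interval did not reach that of II to V as a whole. The interval of X did overlap that of each of II, III, IV and V taken singly, and on II that was 38.6 to 90.9. The 1740 kb gap lies wholly inside the middle part of X. Peaks among the highest 1000 went the same way. The middle part of X held 36.4% of these in replicate 1 and 31.9% in replicate 2, against 48.9% and 50.0% on II to V, with the lowest single chromosome at 42.9% (V, replicate 1) and 42.4% (III, replicate 2). Over all peaks the parts differed little, with 36.1% and 35.5% in the middle of X for replicates 1 and 2, against 37.8% and 38.1% on II to V.

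**Figure D4:**
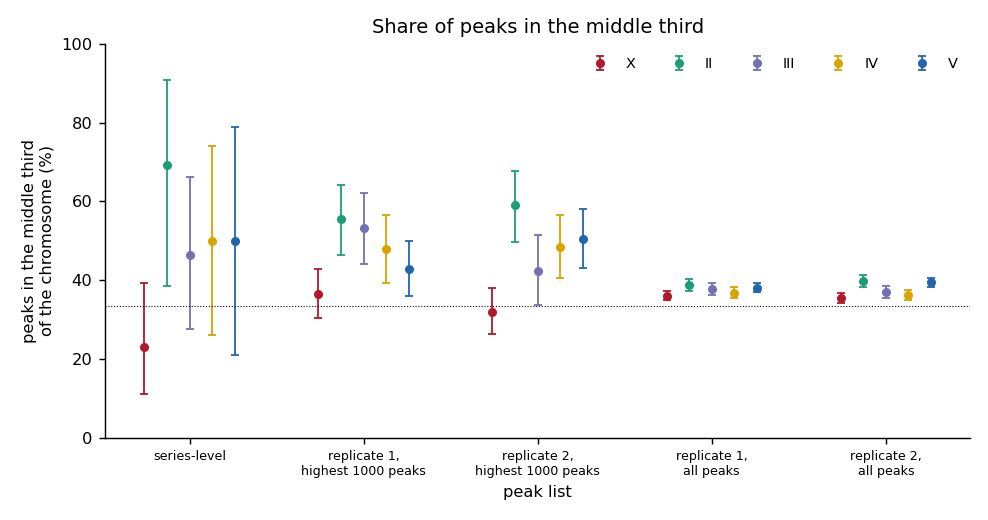
Share of peaks (%) in the middle of 3 equal parts of X, II, III, IV and V for 5 sets of peaks, with 95% exact Clopper-Pearson intervals and a dotted line at an even split. X is lowest in each set, at 23.1% for the series-level sites, and over all peaks of a replicate the chromosomes lie close together.

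The replicates shared slightly more X peaks over the full lists, though not among the highest 1000. Of the X peaks, 2991 of 6235 in replicate 1 (48.0%) overlapped a replicate 2 peak by at least 1 bp, against 8711 of 19422 (44.9%) on II to V and 45.3% over all chromosomes. Two-sided Fisher's exact test gave p = 1.74e-05 (adjusted p = 3.47e-05 by Benjamini-Hochberg over 4 such tests). In replicate 2 it was 2954 of 6120 X peaks (48.3%), against 8706 of 19665 (44.3%) on II to V and 45.2% over all chromosomes (Fisher's exact p = 4.47e-08, adjusted p = 1.79e-07). The single chromosomes ran from 42.3% on III to 47.3% on IV in replicate 1 and from 42.3% on III to 45.5% on V in replicate 2. Both tests count the same overlaps, seen from either list, so the second is not independent of the first. Overlapping peaks of 1 list can count a position more than once, so these p-values describe the lists and can be too small.

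The peaks were also denser on X. X held 352 replicate 1 peaks per Mb and 345 replicate 2 peaks per Mb, against 288 and 291 per Mb on II to V. Peaks covered 16.1% of the X span in replicate 1 and 15.7% in replicate 2, against 13.3% of II to V in both. The part of this density in the higher overlap was not tested. With centres required to lie within 100 bp, the X share was 22.5% in replicate 1, against 21.8% on II to V, and 22.9% in replicate 2, against 21.5%, and neither difference passed (adjusted p = 0.437 and 0.0738 by the exact test). Within the highest 5000 of each list the shares were 19.6% on X and 18.6% on II to V in replicate 1, and 18.8% and 18.6% in replicate 2 (adjusted p = 0.894 for both, exact test).

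Among the highest 1000 peaks X was not distinguishable from II to V in this measure. In replicate 1, 33 of 247 X peaks (13.4%) overlapped one of the highest 1000 of replicate 2, against 88 of 593 on II to V (14.8%) and 14.5% over all chromosomes (two-sided Fisher's exact p = 0.666, adjusted p = 0.744). In replicate 2 it was 33 of 260 (12.7%), against 82 of 592 (13.9%) and 14% over all chromosomes (Fisher's exact p = 0.744, adjusted p = 0.744). III was highest in both, at 24.2% and 23.2%. Here too the tests count the same overlaps from either list. Ranked by deposited score in place of peak number, the highest 1000 went the other way, with 9.52% on X and 5.23% on II to V in replicate 1, and 9.17% and 5.19% in replicate 2 (adjusted p = 0.0437 and 0.0490, exact test). The set ranked by score takes in peaks from far down the lists by number. X peaks numbered 501 to 1000 scored at most -0.0356 in replicate 1 and -0.00597 in replicate 2. Those numbered 20001 to 30000 reached 0.0100 and 0.00161. Matched as mutual nearest centres, the highest 1000 by number gave 31 X pairs, and 27 of them lay in the series-level list. The 4 others began at X:9126850 (numbers 916 and 695), X:9350040 (191 and 730), X:10669451 (850 and 671) and X:12210359 (230 and 739) in replicate 1, all between 9 and 13 Mb. On II to V, 29 of 81 such pairs were not in the list.

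**Figure D5:**
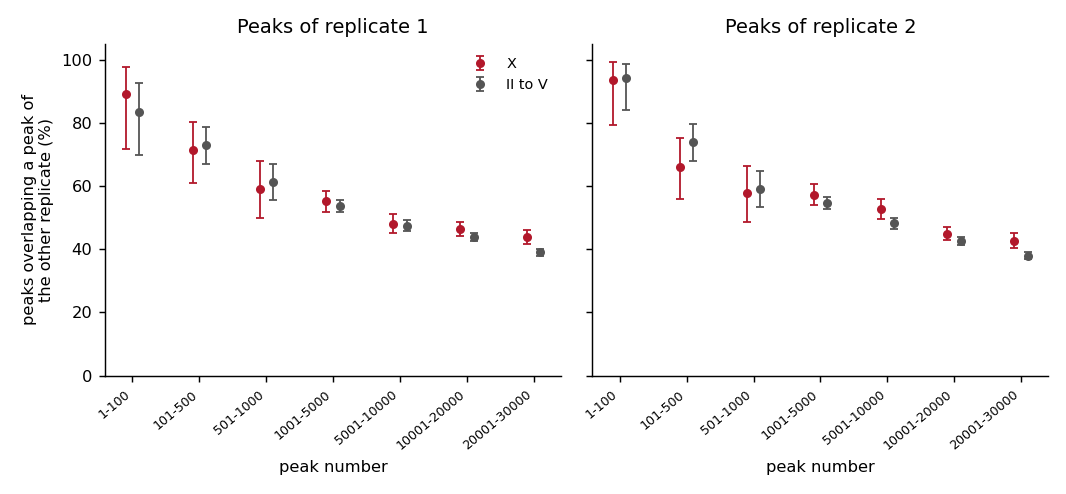
Share of peaks (%) that overlap a peak of the other replicate by at least 1 bp, by range of peak number, for X (red) and II to V (grey), with 95% exact Clopper-Pearson intervals, for replicate 1 (left) and replicate 2 (right). The share falls down both lists, and X stands above II to V with no overlap of the intervals only at numbers 20001 to 30000.

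The share on X was not above that on II to V at numbers 101 to 1000 of either replicate, and was above it in every range from 1001 down. At numbers 1 to 100 of replicate 1, 25 of 28 X peaks (89.3%) and 40 of 48 peaks of II to V (83.3%) overlapped a replicate 2 peak, and III, at 91.7%, stood above X. At numbers 1 to 100 of replicate 2, X was not above II to V, with 30 of 32 (93.75%) against 49 of 52 (94.2%). At numbers 101 to 500 of replicate 1 the shares were 71.3% on X and 73.1% on II to V, and at 501 to 1000 they were 59.2% and 61.4%. Further down replicate 1 they were 55.2% and 53.8% at 1001 to 5000, 48.2% and 47.5% at 5001 to 10000, and 46.5% and 43.9% at 10001 to 20000. At 20001 to 30000 they were 43.9% on X (interval 41.7 to 46.1) and 39.0% on II to V (37.8 to 40.2), and IV alone, at 42.4% (40.1 to 44.8), was close to X. Replicate 2 gave 42.8% on X (40.5 to 45.01) and 37.9% on II to V (36.8 to 39.1) in that last range. The gap was nearly as wide at 5001 to 10000 of replicate 2, with 52.8% on X (49.7 to 55.9) and 48.2% on II to V (46.5 to 49.9), where the intervals just overlap. The shares of replicate 2 were 57.3% on X and 54.7% on II to V at 1001 to 5000, and 44.99% and 42.6% at 10001 to 20000. No range was tested on its own. X peaks numbered 101 to 500 in replicate 2 overlapped less often, at 66.0% (55.8 to 75.2) against 74.0% (67.9 to 79.6), with overlapping intervals. In that range centres of overlapping peaks were a median of 118.5 bp apart on X and 73 bp on II to V, with single chromosomes from 49.5 bp on IV to 98 bp on II. In the same range of replicate 1 the medians were 104 bp on X and 82 bp on II to V.

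Peak order was weakly shared on X over the full lists. Across 2529 X peaks matched as mutual nearest centres, Spearman's correlation of peak numbers was 0.10, against 0.11 across 7506 on II to V. Within the highest 5000 of both lists it was 0.30 across 178 X peaks and 0.15 across 448 on II to V, between 0.04 on V and 0.39 on III. Across the 29 X peaks matched in the full lists that were also within the highest 1000 of both it was 0.62. On II to V it was 0.40 across 60 peaks, between 0.28 on V and 0.59 on IV. IV, with 12 such peaks, was thus close to X. These correlations are across positions that share their libraries, and they are given as descriptions without a test. Matched X centres lay a median of 83 bp apart over the full lists, 60 bp within the highest 5000 and 33 bp within the highest 1000, against 81, 46 and 34.5 bp on II to V.

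X peaks made up more of the top of each list than of its whole. Counting X and II to V only, X held 24.3% of all replicate 1 peaks and 23.7% of all replicate 2 peaks. Of the highest 1000 it held 29.4% and 30.5%, a mean of 29.96% ± 0.786 (SD, n = 2 replicates), and of the highest 100 it held 36.8% and 38.1%. The enrichment of X at the top was known when X was chosen and is given without a test. Overlap within a list was also a little more common on X in replicate 1, where 32.6% of X peaks overlapped another peak of the list, against 28.8% on II to V. In replicate 2 the shares were 29.7% and 28.6%. The longest run of overlapping X peaks had 4 members in each replicate, at X:1626897-1628038 and X:2718733-2720004, and their lowest numbers, 2837 and 14548, were far from the top.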

How the data were processed

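The deposited lists give, for each peak, a chromosome, a start, an end, a score and a name with a number. Per the file headers and source column, the lists are on build WS220 and were made with SPP, a peak caller, through IDR (irreproducible discovery rate, a comparison of replicate orders). No label or header used here names the aligner, versions, thresholds or pooling of reads. The score deposited by the authors is on a log10 scale. From its values it equals log10((n - 0.5)/(c + 0.5)), with n the peak number and c a whole number within 0.001 for 98.8% of X peaks below the highest score in replicate 1, for 99.5% in replicate 2 and for 100% of series-level X peaks below the highest score. Series-level peaks are 504 bp wide, replicate 1 peaks 496 bp and replicate 2 peaks 490 bp.

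Lists were read and compared with Python 3.11.15, numpy 2.4.6, pandas 2.3.3 and scipy 1.17.1. Overlap meant at least 1 bp in common. For a site, the overlapping peak with the lowest number was taken in each replicate. Gaps ran from centre to centre, and a chromosome's span ended at its highest peak end in any list (17.7 Mb for X). Intervals of medians came from order statistics. Two-sided Fisher's exact tests set X against II to V on 4 shares. The shares of replicates 1 and 2 count the same overlaps from either list, so the 4 tests are not independent. Matching was tested on simulated data. The members, the named sites (all X sites, the 5 lowest-numbered X peaks of each replicate outside the series-level list, and the extremes of gaps, bins and number ratios) and the tests were chosen with earlier results of these data known. Alternatives were stricter overlaps, other list lengths, ranking by score, runs of overlapping peaks or neighbouring sites counted once, the upper part of the series-level list, shifted bins and single replicates. Chromosome I was not used here beyond totals. The input libraries and the search for a Hox-Pbx word were left out, since no list or WS220 genome was used for them. Depth is unknown.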

Additional observations from a re-analysis of the deposited data

How the results depend on the processing

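For the 11 results, 44 alternative settings were tried. Of these, 27 left the call and direction as they were, or the value within its interval, replicate spread or 1.5-fold range. The 27 include the X share of the highest 1000 with 1 replicate left out. That value must fall within a spread taken from the same 2 replicates, so it is no sign of stability. The excess of shared X peaks over the full lists kept its direction under all 4 alternatives. It no longer passed with centres within 100 bp or in the highest 5000 of each list. At 100 bp the shares on X and II to V were 22.5% and 21.8% in replicate 1, and 22.9% and 21.5% in replicate 2. In the highest 5000 they were 19.6% and 18.6% in replicate 1, and 18.8% and 18.6% in replicate 2. Fewer peaks count as shared or enter there by construction, and the differences in share were smaller than in the main setting. Shares on both X and II to V were lower there, so the differences are not on the same scale. How far the lower counts account for the lost call was not tested. Among the highest 1000 the small deficit of X changed sign in several settings. X then held the higher share with centres within 100 bp (9.31% in replicate 1 and 8.85% in replicate 2), with at least 50% of the shorter peak in common (13.4% and 12.7%), in the highest 2000 (14.5% and 13.8%) and, for replicate 1, in the highest 500 (18.0%); none of these differences passed. Ranked by deposited score, the set takes in peaks from far down the lists by number. X then held 9.52% in replicate 1, against 5.23% on II to V, and 9.17% in replicate 2, against 5.19%. Both differences passed the exact test (adjusted p = 0.0437 and 0.0490). The cause was not tested. The mean X share of 29.96% of the highest 1000 was 28.5% in the highest 2000 and 25.5% by score, and 29.4% to 30.5% with 1 replicate left out. The median X gap became 532 kb in the upper 70 series-level peaks, which leave 22 X sites, against 987 kb on II to V. Spearman's correlation was 0.30 in the highest 5000. The X share in the middle part stayed between 21.1% and 32.3%, and 13 to 16 bins held a site. The 28 sites within the highest 1000 of both were 36 without replicate 1 and 31 without replicate 2. No paired analysis was possible because no list of the inputs, which carry the same replicate numbers as the ChIP libraries, was used here. Unknown depth limits every comparison of the replicates.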
